A study of Homo sapiens with 9 samples.

Results

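The MCM helicase and origin licensing genes described here are MCM2, MCM3, MCM4, MCM5, MCM6, MCM7, MCM10, CDC6, CDT1 and ORC1, 10 of the 18417 human genes that had a probe set of their own on Affymetrix Human Gene 1.0 ST arrays. A member was read from the probe set that the array annotation pairs with that 1 symbol, and each of the 10 had 1 such probe set and shared none with another gene. The rule for the probe sets used no measured difference, but the members were chosen with earlier results of these data known. Counts of members set beside shares of all probe sets are therefore descriptions and not tests of the set. The values are log2 signals, in which a difference of 1 is a 2-fold change, and all 10 members reached the signal of 5 on at least 1 array that a probe set needed to enter the tests.

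The RNA on the 9 arrays came, by its labels, from SK-BR-3, a breast cancer cell line in which ERBB2 is amplified, stably transfected with the vector pcDNA3.1/V5/His-pTOPO carrying TFPIα cDNA in 3 arrays, TFPIβ cDNA in 3 and no insert in 3 (empty vector). All 3 cell lines were therefore transfected and drug-selected cells, grown in the same medium with serum, and the selecting drug was puromycin by the labels and neomycin by the study's methods. The study compared each TFPI line with empty vector cells to find the transcripts that differ when a TFPI isoform is overexpressed. The replicates were 3 separate RNA isolations from each line, so p-values cover the spread between isolations of 1 line and not between independently made lines. TFPI is an inhibitor of the coagulation initiated by tissue factor; TFPIα is secreted and TFPIβ is anchored to the cell surface.

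Before a cell copies its DNA, each replication origin has to be licensed. The origin recognition complex, of which ORC1 is a subunit that cycles in many cells, binds the origin in G1 phase and with CDC6 and CDT1 places rings of MCM2, MCM3, MCM4, MCM5, MCM6 and MCM7 around the double helix. These rings stay inactive until S phase, when CDC45 and the GINS proteins join them and MCM10 helps to turn them into working helicases. CDT1 is destroyed in S phase and held back by geminin (GMNN), which keeps an origin from being licensed again in the same cycle. Transcription of most of these genes is driven by E2F factors when cells leave rest or pass from G1 into S phase, and MCM proteins are widely used as markers of cells that are able to divide.

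The labels were set against the arrays first. ERBB2 stood at 5.88 ± 0.18 log2 units (SD, n = 9), whereas KRT5 and KRT14, keratins of basal epithelium, had 12.64 ± 0.16 and 12.43 ± 0.29 (SD, n = 9), which goes against the labelled line and its luminal-like origin. Of the luminal keratins KRT18 was high, at 10.40 ± 0.43, while KRT8 and KRT19 had means of 5.86 and 4.88. TFPI itself had log2 signals of 5.66, 5.81 and 5.51 in the arrays labelled TFPIα, of 5.55, 5.79 and 5.81 in those labelled TFPIβ and of 5.81, 6.48 and 6.45 in those labelled empty vector. By the study's account the transfected cDNA lacked the untranslated regions that array probes of this gene recognise. Against empty vector arrays TFPI differed by -0.59 log2 units in TFPIα and by -0.53 in TFPIβ arrays. How much of these signals came from the cell's own transcript was not tested. With the PLIER algorithm, which drops weak probes, the study reported TFPI to be higher in both TFPI lines. That algorithm was not run here, so the labels were not checked by TFPI. Over 17482 probe sets the array closest to TFPIβ replicate 3 was TFPIα replicate 3 (r = 0.987), also after the members were taken out. Its correlations with TFPIβ replicates 1 and 2 were 0.967 and 0.953, and those 2 arrays correlated at 0.973. Other arrays were also closest to an array of another label. TFPIα and TFPIβ replicates 1 were closest to each other (r = 0.985), as were TFPIβ and empty vector replicates 2 (r = 0.984). Empty vector replicate 1 was closest to TFPIα replicate 1 (r = 0.985). The comparisons of the members between groups and replicate numbers are given with and without TFPIβ replicate 3. Correlations between genes over the arrays are given with that array only.

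The promoters of the members are shown because most of these genes share a known class of regulatory site. RefSeq windows of 300 bases on GRCh38.p14, from 250 bases before a start of transcription to 50 bases after it, were at hand for 8 members; MCM4 and MCM5 were not shown. The windows were searched on both strands for TTTCCCG and TTTCGCG as well as TTTGCCG and TTTGGCG, forms of the E2F site, letters that were settled on with these windows in view. At least 1 of them was found in 7 of the 8 members, the exception being ORC1, in 13.4% of the windows of 9060 genes past the signal filter and in 8.69% of the windows of all 27305 genes. Other forms of the site were not searched, so the ORC1 window may hold one that these letters miss. Below are the 100 bases before the first listed start of 4 members, 5′ to 3′ on the strand of the gene, with matches in capitals. They come from chr17:40287779-40287878 (plus strand) for CDC6, chr16:88803689-88803788 (plus strand) for CDT1, chr2:135876444-135876543 (minus strand) for MCM6 and chr7:100101398-100101497 (minus strand) for MCM7.
CDC6: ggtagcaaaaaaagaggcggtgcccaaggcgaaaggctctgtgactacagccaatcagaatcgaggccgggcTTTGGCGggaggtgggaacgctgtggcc
CDT1: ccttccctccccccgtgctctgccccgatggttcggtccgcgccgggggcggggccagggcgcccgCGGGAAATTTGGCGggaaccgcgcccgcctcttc
MCM6: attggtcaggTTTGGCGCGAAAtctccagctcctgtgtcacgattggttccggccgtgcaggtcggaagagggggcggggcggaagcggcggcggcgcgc
MCM7: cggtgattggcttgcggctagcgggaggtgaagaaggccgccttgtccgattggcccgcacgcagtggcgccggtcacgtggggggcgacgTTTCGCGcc
In CDC6 the match lay at positions -28 to -22 before the start, and a further one lay at 8 to 14 after it. CDT1 carried a match on each strand side by side, at -34 to -28 and -27 to -21. MCM6 had TTTGGCG overlapping CGCGAAA, the reverse complement of TTTCGCG, at -90 to -79, and the same pair again at -152 to -141. The matches of MCM2 (3 to 14) and MCM10 (6 to 12) lay after the start, and those of MCM3 lay at -174 to -168 and across the start. CCAAT, the letters bound by NF-Y, was found in 6 of the 8 windows and in 36.6% of those of the 9060 genes. TTTGAA, the letters of the CHR element of late cell cycle genes, was found in 0 of the 8 and in 9.6% of those of the 9060. At so low a share, its absence from 8 windows says little about the members. These are matches of letters in a window and not measured binding.

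The values of the members in every array are given by role, with the log2 signals of replicates 1, 2 and 3 in that order. ORC1, the origin recognition subunit, had 7.02, 6.93 and 7.06 in TFPIα arrays, 6.06, 5.35 and 7.03 in TFPIβ arrays and 6.17, 5.64 and 5.997 in empty vector arrays. The 3 TFPIα values lay within 0.13 of each other, and TFPIβ replicate 3 lay among them. CDC6, an ATPase that loads the helicase, had 8.48, 8.59 and 9.005 in TFPIα arrays, 7.01, 5.15 and 8.74 in TFPIβ arrays and 7.88, 5.98 and 7.04 in empty vector arrays. It spread the most of the 10 members, over 3.85 log2 units or 14.4-fold, and its empty vector arrays alone spanned 1.90. CDT1, the other loading factor, had 5.999, 6.09 and 5.95 in TFPIα arrays, 5.73, 5.40 and 6.07 in TFPIβ arrays and 5.75, 5.59 and 5.46 in empty vector arrays. Its whole range was 0.69, or 1.62-fold, the smallest of the 10.

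The helicase subunits varied over ranges between those of CDC6 and CDT1. MCM2 had log2 signals of 7.69, 7.70 and 8.11 in TFPIα arrays, 6.78, 6.18 and 7.91 in TFPIβ arrays and 6.88, 6.36 and 6.71 in empty vector arrays. For MCM3 they were 8.19, 8.20 and 8.57, then 6.88, 6.09 and 8.74, and 7.27, 6.21 and 6.89 in the same order of groups. MCM4 had 8.35, 8.87 and 9.07 in TFPIα arrays, 7.15, 7.04 and 9.07 in TFPIβ arrays and 7.17, 6.72 and 7.06 in empty vector arrays. For each of these subunits the TFPIα arrays and TFPIβ replicate 3 were high and the remaining 5 arrays low. MCM5 had 8.38, 8.20 and 8.53, then 6.99, 5.90 and 8.35, and 7.17, 6.23 and 6.93 in TFPIα, TFPIβ and empty vector arrays. MCM6 showed the widest range of the ring subunits, 2.98, with 8.45, 8.65 and 9.02 in TFPIα arrays, 6.84, 6.06 and 9.04 in TFPIβ arrays and 7.26, 6.25 and 7.07 in empty vector arrays. MCM7 had 8.87, 9.02 and 9.28 in TFPIα arrays, 7.95, 7.17 and 9.28 in TFPIβ arrays and 8.16, 7.14 and 7.96 in empty vector arrays. MCM10, which acts when the helicase is switched on, had the second widest range of all members, 3.04. Its log2 signals were 6.66, 7.07 and 7.29 in TFPIα arrays, 5.29, 4.50 and 7.16 in TFPIβ arrays and 5.42, 4.25 and 5.38 in empty vector arrays, and the lowest of them, those of TFPIβ and empty vector replicates 2, were under 5, the limit of the filter.

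**Figure D1:**
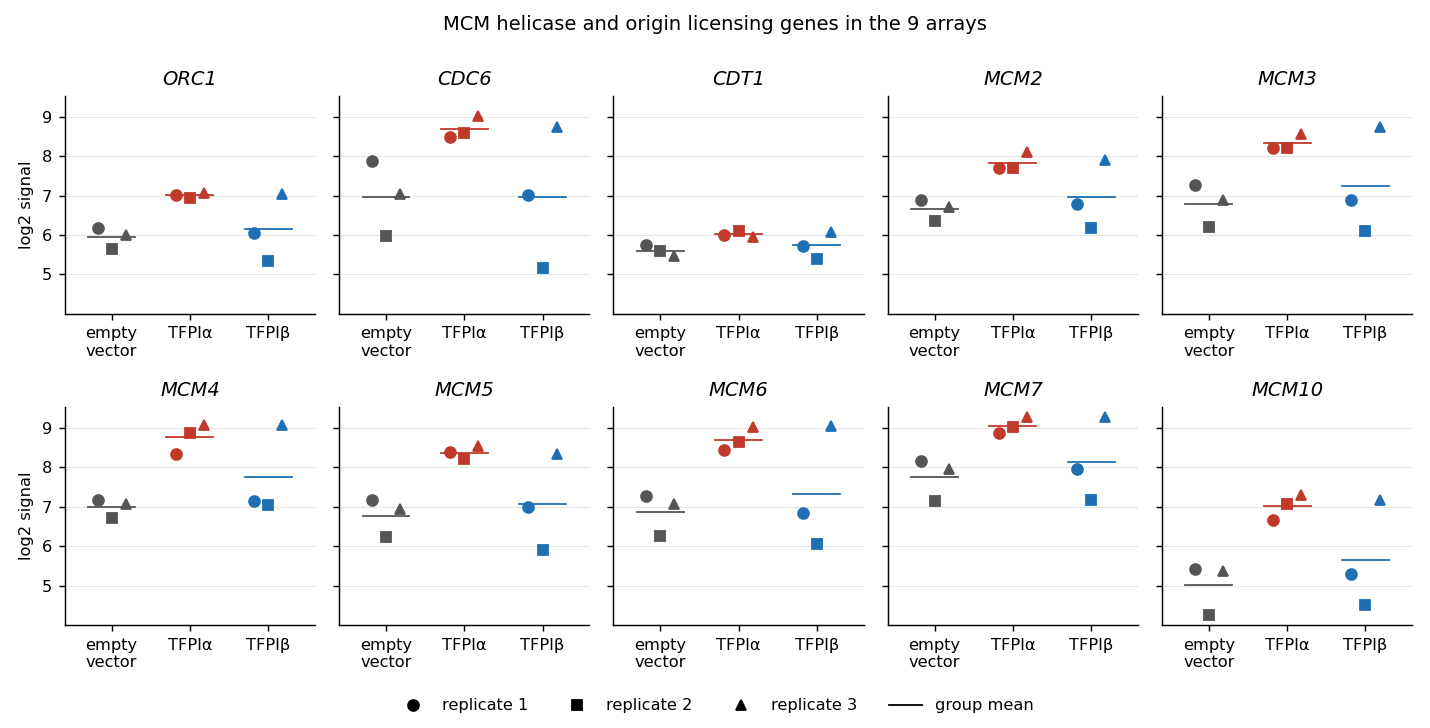
Log2 signal (vertical axis) of each member in the 9 arrays, by vector group (horizontal axis) and replicate number (symbol), with a line at the group mean. In every panel the 3 TFPIα points and TFPIβ replicate 3 lie above the other 5 points.

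The members shared a split into 4 high and 5 low arrays. In 10 of 10 the 3 TFPIα arrays and TFPIβ replicate 3 lay above the other 5 arrays, as did 9.51% of the 17482 probe sets tested. This split was chosen from these arrays and not from the labels, so the count is a description and not a test. TFPIβ replicate 3 was inside the range of the TFPIα arrays for 7 members and above it for MCM3, MCM4 and MCM6, and it exceeded the mean of TFPIβ replicates 1 and 2 by 0.50 (CDT1) to 2.66 (CDC6). The lowest array was TFPIβ replicate 2 for 7 members and empty vector replicate 2 for 3, namely MCM4, MCM7 and MCM10. Replicate 1 lay above replicate 2 among the TFPIβ arrays in 10 of 10 members, and among the empty vector arrays the order from the highest down was replicate 1, replicate 3, replicate 2 in 9 of 10. In the mean of the members the TFPIα arrays did not repeat the low replicate 2, which was the lowest TFPIα array for ORC1 and MCM5 only. Averaged over the members, their log2 signals were 7.81, 7.93 and 8.19 in TFPIα arrays, 6.67, 5.88 and 8.14 in TFPIβ arrays and 6.91, 6.04 and 6.65 in empty vector arrays. In RNA of whole cultures, fewer cells that express these genes and less of their RNA per cell cannot be told apart.

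Over the 9 arrays the 45 pairs of members had Pearson correlations of 0.854 to 0.998, with a median of 0.969. The highest was that of ORC1 with MCM5 and the lowest that of CDC6 with MCM4. After the group means had been subtracted the correlations were 0.765 to 0.995, with a median of 0.968. They pool the 3 groups, of which TFPIβ spread the most. The SD of the members was 0.34 to 1.79 in TFPIβ, 0.15 to 0.95 in empty vector and 0.06 to 0.37 in TFPIα arrays. Correlations within a single group were not computed. The 9 points of each correlation share 3 cell lines and a common normalization and are given as a description. They include TFPIβ replicate 3, and no correlation was computed without it. Of 11222 other genes, the 10 most like the mean standardised signal of the members were CDC45, GMNN, MIPEP, VRK1, PSMC3IP, FAM111B, RFWD3, USP1, GINS2 and TUBG1 (r = 0.992 to 0.996 over 9 arrays). CDC45 and GINS2 are partners of the MCM ring in the active helicase and GMNN is the inhibitor of CDT1. MIPEP, a mitochondrial peptidase, had nearly the same order of arrays over a range of 0.68 only. Its lowest array was empty vector replicate 2, and that of the members' mean was TFPIβ replicate 2. With group means subtracted the list was POLE2, LIN9, RFWD3, NUP107, CDC45, CDCA7L, FAM111B, EXO1, VRK1 and FANCB (r = 0.993 to 0.997), of which CDC45, RFWD3, FAM111B and VRK1 stood in both lists.

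CDC45, the gene most like the members, had log2 signals of 7.66, 7.85 and 8.13 in TFPIα arrays, 6.09, 5.37 and 7.95 in TFPIβ arrays and 6.70, 5.52 and 6.20 in empty vector arrays. For GMNN they were 7.87, 8.10 and 8.30, then 6.75, 6.30 and 8.26, and 7.04, 6.34 and 6.76. Both genes had the high and low arrays of the members, which follows from their choice by correlation with the members.

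In TFPIα against empty vector arrays, all 10 members had a higher mean in the TFPIα arrays, and none of them passed the test. The log2 fold changes ran from 0.41 (CDT1) to 1.99 (MCM10), with a median of 1.56, against a median of 0.00 over all 17482 probe sets. MCM10 was 1.99 higher (SE 0.63, 3.97-fold), MCM6 1.84 (SE 0.67), MCM4 1.78 (SE 0.49) and CDC6 1.73 (SE 0.82). The other ring subunits were 1.18 (SE 0.39) higher for MCM2, 1.53 (SE 0.60) for MCM3, 1.59 (SE 0.54) for MCM5 and 1.30 (SE 0.49) for MCM7. ORC1 was 1.07 higher (SE 0.36) and CDT1 0.41 (SE 0.16), or 1.33-fold. The groups did not overlap in 10 of 10 members, as in 14.4% of all probe sets in this direction, and the gap between the lowest TFPIα and the highest empty vector array was 0.20 for CDT1 and 0.60 to 1.24 for the others.

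To be called, a transcript needed a limma p under 0.05 after Benjamini-Hochberg adjustment and at least a 2-fold difference. By this rule 0 of 10 members were called, against 0.00572% of all probe sets, 1 in number, which was ATP1B1, the gene of a sodium pump subunit. The adjusted p-values of the members in limma were 0.335 to 0.371, and 9 of 10 had an unadjusted p under 0.05 (all but CDC6), against 8.59% of all probe sets in this direction. In the one-way model without variance moderation 0 were called and 5 had an unadjusted p under 0.05, against 1132 of all 17482 probe sets in this direction. Without TFPIβ replicate 3, which enters this comparison through the common estimate of the spread, the fold changes stayed as they were, the adjusted p-values were 0.128 to 0.194 and 10 of 10 had an unadjusted p under 0.05, against 11.8% of all probe sets. With the replicate number as a block the adjusted p-values in limma were 0.183 to 0.244, and with both changes they were 0.081 to 0.144. In either fit 10 of 10 had an unadjusted p under 0.05, against 2080 and 2281 of all 17482 probe sets in this direction. The number with an unadjusted p under 0.05 fell to 5 without TFPIα replicate 2 (4.52% of all probe sets), 4 without TFPIα replicate 3 (3.63%) and 2 without empty vector replicate 2 (4.06%), where the median fold change was 1.24 on the log2 scale.

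Between TFPIβ and empty vector arrays, the latter being those of the comparison above, no member passed the test. With all arrays the log2 fold changes were 0.00 (CDC6) to 0.77 (MCM4, SE 0.49), with a median of 0.34, above 0 in 10 of 10 members. The adjusted p-values in limma were 1.00, 0% of all probe sets were called, and no member had an unadjusted p under 0.05. Without TFPIβ replicate 3 the direction turned for 9 of the 10 members. The log2 fold changes were then -0.88 (SE 0.65) for CDC6, -0.41 (SE 0.35) for MCM6, -0.33 (SE 0.37) for MCM5 and -0.30 (SE 0.34) for MCM3. They were -0.23 for ORC1, -0.19 for MCM7, -0.17 for MCM2, -0.13 for MCM10 and -0.04 for CDT1, and 0.11 for MCM4. With the replicate block as well the direction turned for 8, MCM10 having 0.034. The median without the block was -0.21, the adjusted p-values in limma were 0.820 to 0.969, and again none had an unadjusted p under 0.05.

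TFPIβ against TFPIα tests the difference between the isoform lines itself, and it shares the TFPIα and TFPIβ arrays with the comparisons above. The members were lower in the TFPIβ arrays by a median of -1.05 on the log2 scale, from -0.28 (CDT1) to -1.73 (CDC6, SE 0.82). None was called, as was 0% of all probe sets, with adjusted p-values in limma of 0.532 to 0.540. ORC1 (-0.86, SE 0.36) and MCM5 (-1.29, SE 0.54) had an unadjusted p under 0.05, 2 of 10 against 4.7% of all probe sets in this direction. This number was 0 without variance moderation, with only the compared groups and with any 1 of 7 arrays left out (each TFPIα array, TFPIβ replicates 1 and 2, empty vector replicates 1 and 3), and 1 without empty vector replicate 2. With the replicate number as a block 8 of 10 had one, against 9.21%, and the adjusted p-values were from 0.320 to 0.433. Without TFPIβ replicate 3 the median was -1.75 and 10 of 10 had an unadjusted p under 0.05, against 14% of all probe sets, with adjusted p-values in limma of 0.116 to 0.135. CDC6 then had a log2 fold change of -2.61 (SE 0.65), MCM6 had -2.25 (SE 0.35), MCM10 -2.12 (SE 0.40) and CDT1 -0.45 (SE 0.13). TFPIβ replicates 1 and 2 lay below every TFPIα array in 10 of 10 members, as in 23.8% of all probe sets.

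**Figure D2:**
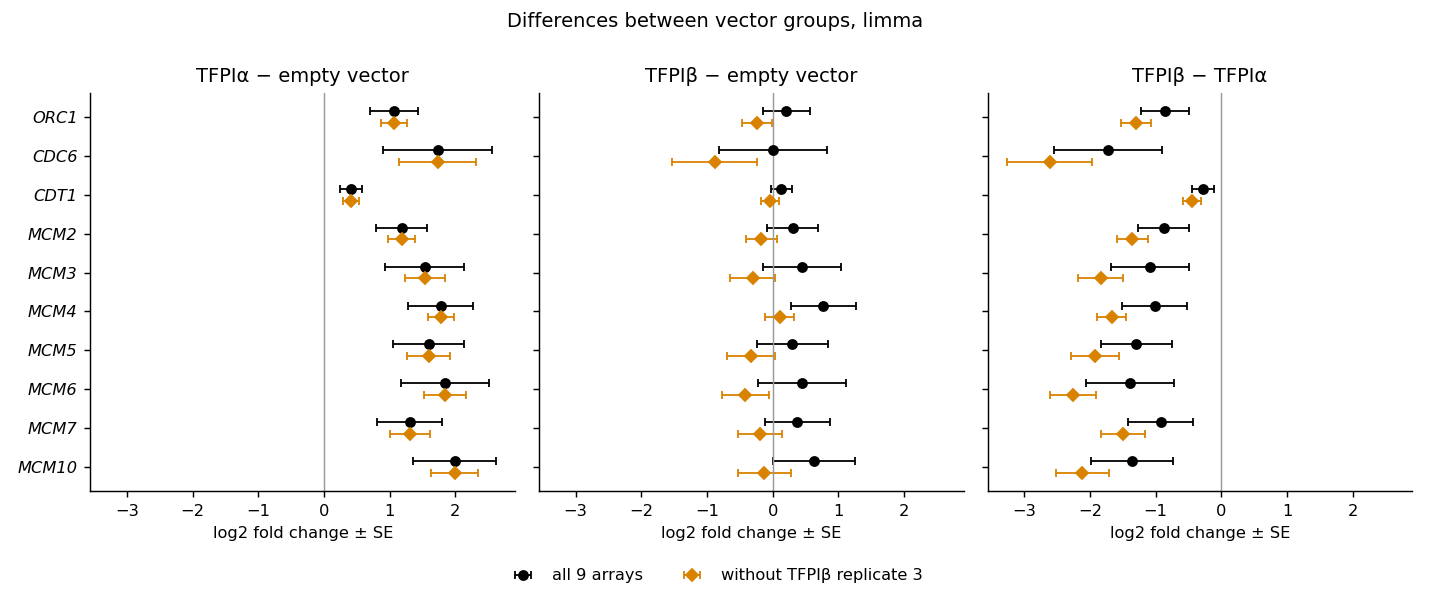
Log2 fold change of each member (horizontal axis, points; bars show the SE of limma) in the 3 comparisons of vector groups, with all 9 arrays (black) and without TFPIβ replicate 3 (orange). In TFPIβ against empty vector the orange points lie below 0 for 9 of 10 members and the black points do not; in TFPIα against empty vector only the bars differ.

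The replicate numbers of the labels were compared across the 3 groups, since arrays of the same number deviated together. Replicate 3 was above replicate 2 in 10 of 10 members, by a median of 1.11 on the log2 scale. CDC6 differed by 1.68 (SE 0.63), MCM6 by 1.39 (SE 0.51), MCM10 by 1.34 (SE 0.47) and CDT1 by 0.13 (SE 0.17). None was called, as was 0% of all probe sets, and the adjusted p-values in limma were 0.302 to 0.718. An unadjusted p under 0.05 was found for 8 of 10 (not CDT1 or MCM4), against 9.24% of all probe sets in this direction, and without variance moderation for 0. Leaving out TFPIβ replicate 3, it was found for 1 (MCM5), against 3.85%, and the median was 0.58. The number was also 1 without empty vector replicate 2 and 0 without TFPIβ replicate 2.

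Replicate 2 was below replicate 1 in 10 of 10 members, by a median of -0.52, from -0.01 (MCM4) to -1.22 (CDC6, SE 0.63). This median was -0.95 without TFPIα replicate 2, -0.21 without empty vector replicate 1, where 1 member was above 0, and -0.13 without TFPIβ replicate 2, where 2 were. None was called, against 0.114% of all probe sets, and 0 had an unadjusted p under 0.05, against 7.84% of all probe sets in this direction. Without TFPIβ replicate 3 the fold changes were the same and 5 members had an unadjusted p under 0.05, against 8.73%, with adjusted p-values in limma of at least 0.207. Replicate 3 against replicate 1 gave a median of 0.49 with all arrays, with no member called, as was 0% of all probe sets, and 0 with an unadjusted p under 0.05. When TFPIβ replicate 3 was left out this median was 0.00, with 5 members above 0 and 5 below.

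Other genes of DNA replication were read from lists written with earlier results of these data known, and none of their genes was called in any of these comparisons. Of 36 other licensing and origin firing genes, 35 were above 0 in TFPIα against empty vector arrays, with a median of 0.87. In limma 17 had an unadjusted p under 0.05, against 8.59% of all probe sets in this direction. CLSPN (claspin, a checkpoint adaptor at the fork) was 2.49 higher on the log2 scale (SE 0.85), CCNE2 (cyclin E2) 2.35 (SE 0.89) and DTL (a receptor of the ligase that destroys CDT1) 1.84 (SE 0.83). CLSPN had log2 signals of 6.63, 7.04 and 7.29 in TFPIα arrays, 4.30, 3.68 and 7.25 in TFPIβ arrays and 5.17, 3.57 and 4.75 in empty vector arrays. The empty vector means of CLSPN (4.50) and CCNE2 (4.72) were under the filter limit of 5, so the sizes of these differences rest on dim signals. The high and low arrays of CLSPN were those of the members.

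Of 31 genes of the replication fork and nucleotide supply, 31 were above 0 in the same comparison, with a median of 0.95. An unadjusted p under 0.05 in limma was found for 25, against 8.59% of all probe sets in this direction. POLE2, a subunit of the leading strand polymerase, was 1.74 higher (SE 0.74), FEN1, the flap nuclease of lagging strand processing, 1.53 (SE 0.57), and ASF1B, a histone chaperone, 1.36 (SE 0.46). The empty vector mean of POLE2 was 3.97, again under the filter limit. Without TFPIβ replicate 3 the number was 30 of 31 here and 28 of 36 for other licensing genes, against 11.8% of all probe sets. In TFPIβ against empty vector arrays, the medians of these lists were 0.17 and 0.19 for licensing and fork genes with all arrays and -0.27 and -0.28 without TFPIβ replicate 3, and so turned direction as those of the members did.

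Among the upstream regulators the medians were smaller. Of 12 E2F and RB family genes, 5 were higher and 1 lower in TFPIα against empty vector arrays at an unadjusted p under 0.05. Of all 17482 probe sets 1502 were higher and 976 lower at that level in limma. The median of the family genes was 0.28, and their largest differences were those of E2F7 (1.00, SE 0.38), RBL1 (0.84, SE 0.34) and E2F5 (0.58, SE 0.51). E2F7 is a repressor among the E2F factors and RBL1 encodes the pocket protein p107. Of 10 G1 cyclin and CDK inhibitor genes, 6 were above 0 and 4 below. At that level 4 were higher, against 8.59% of all probe sets. The median was 0.22, with 0.08 without TFPIα replicate 2 and 0.41 over the genes that passed a filter at 6. CDK6 was 0.92 higher (SE 0.31), CCND1 0.66 (SE 0.27) and CCND3 0.54 (SE 0.12), all of them parts of the kinases that act on RB in G1.

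For the mitosis genes the number past an unadjusted p of 0.05 moved with the fit. All 20 were above 0 in TFPIα against empty vector arrays, with a median of 0.96. In limma 1 had an unadjusted p under 0.05, against 8.59% of all probe sets in this direction. That number was 5 without TFPIβ replicate 3, against 11.8% of all probe sets. It was 11 with the replicate block and 14 with only the compared groups, against 2080 and 2050 of all 17482 probe sets. With empty vector replicate 2 left out the list had a median of 0.59. The largest differences were those of FOXM1 (1.25, SE 0.59), BUB1 (1.24, SE 0.65) and TTK (1.20, SE 0.63). Their mean log2 signal, taken relative to its own mean over the 9 arrays, was -1.61 in TFPIβ replicate 2 and -1.09 in empty vector replicate 2, whereas it was 0.06 and 0.12 in empty vector replicates 1 and 3 and 0.06 in TFPIβ replicate 1. On the same scale the members had -1.25 and -1.10 in those replicates 2, and -0.22, -0.49 and -0.47 in the latter 3 arrays. In replicate 2 against replicate 1, 10 of the 20 mitosis genes were lower at an unadjusted p under 0.05 in limma. Of all probe sets 7.84% were lower at that level. The mitosis genes were led by KIF20A (-1.25, SE 0.41), MKI67 (-1.22, SE 0.45) and PLK1 (-1.14, SE 0.45). In replicate 3 against replicate 2, 18 of 20 were higher at that level, against 9.24% of all probe sets. Without TFPIβ replicate 3 it was 1 of 20, against 3.85%. The difference in shape between the lists was not tested.

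**Figure D3:**
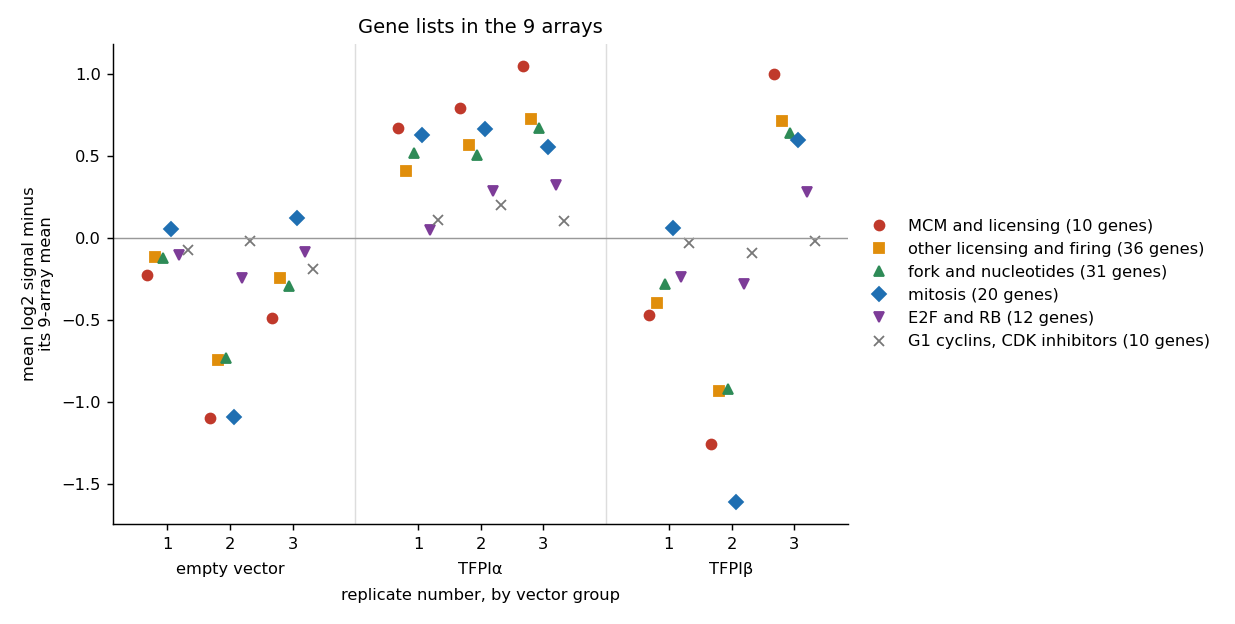
Mean log2 signal of each gene list minus its own mean over the 9 arrays (vertical axis), by vector group and replicate number (horizontal axis); each symbol is a list, and no error is drawn since each point is 1 array. The members reach 1.05 in TFPIα replicate 3 and -1.25 in TFPIβ replicate 2, while the mitosis list stays near 0 in replicates 1 and 3 of empty vector and in TFPIβ replicate 1.

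Some epithelial markers varied between the same arrays. Of the basal epithelial markers, 6 of 10 had a probe set of their own past the filter, and 5 of the 6 were lower in TFPIα than in empty vector arrays, with a median of -0.46. ITGB4, an integrin of hemidesmosomes, had log2 signals of 8.61, 8.45 and 8.44 in TFPIα arrays, 9.06, 9.63 and 8.53 in TFPIβ arrays and 9.01, 9.69 and 9.39 in empty vector arrays. It was high where the members were low (r = -0.98 with their mean standardised signal), as was DSG3, a desmosomal cadherin (r = -0.96). TRIM29 differed by -0.66 (SE 0.51) between TFPIα and empty vector arrays. The mean of the list relative to its own 9-array mean was -0.38 to -0.03 in TFPIα arrays, -0.41 to 0.51 in TFPIβ arrays and -0.03 to 0.43 in empty vector arrays. For the 7 of 10 luminal and ERBB2 amplicon markers past the filter these ranges were -0.09 to 0.04, -0.09 to 0.16 and -0.16 to 0.05. In TFPIα against empty vector arrays KRT18 was 0.66 higher (SE 0.26), GATA3 differed by -0.32 (SE 0.20) and KRT8 by -0.12 (SE 0.13). Fibroblast markers past the filter were 4 of 8, with COL1A2, COL3A1, PDGFRB and THY1 under it, and leukocyte markers 3 of 8, with PTPRC, CD3E, ITGAM and LYZ under it. DCN (decorin, a matrix proteoglycan) was 10.85 in empty vector arrays, and it differed from them by -0.90 (SE 0.20) in TFPIα and by -1.26 (SE 0.20) in TFPIβ arrays, without passing the test. COL1A1 differed by -0.80 (SE 0.37), POSTN by 0.48 (SE 0.57), CD14 by -0.40 (SE 0.63), CD68 by -0.04 (SE 0.28) and TYROBP by 0.03 (SE 0.09) in TFPIα against empty vector arrays. Between replicate numbers LUM, a dim signal with a mean of 3.63, was 1.77 higher (SE 0.23) in replicate 3 than in replicate 1, and CD14 was 1.499 higher (SE 0.38) in replicate 3 than in replicate 2. The part of these markers in the results on the members was not tested.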

How the data were processed

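RNA of 9 samples was hybridised to Affymetrix Human Gene 1.0 ST arrays. The authors normalized the arrays with RMA in Partek (versions not given in the sources used here), and the deposited values are log2 signals of 33297 probe sets; the log base was read from the values. RMA fits all arrays together and pulls their distributions alike, so a change common to most genes would not be seen. Gene symbols came from the platform annotation, and of several probe sets of a gene the brightest was used. The number of arrays limits the precision.

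Probe sets under a log2 signal of 5 on all arrays were left out, which kept 17482: 11838 with 1 symbol, 1150 with several and 4494 with none. One model of the 3 groups was fitted in limma 3.58.1 (R 4.3.3; functions lmFit and eBayes), with Benjamini-Hochberg adjustment over all 17482; replicate numbers were compared in a model with vector group and replicate number. A call needed both an adjusted p below 0.05 and a difference of 2-fold or more. With 3 arrays in a group, single genes were not tested by permutation. The fits were tested on simulated data with noise independent between arrays and genes. That test therefore does not cover the pairing of arrays given next or the correlation between members. For the 9 pairs of equally numbered arrays from different groups, deviations from the group means correlated at 0.137 to 0.594, against -0.512 to 0.266 for the other 18, so the numbers pair the arrays, and a fit with the replicate number as a block was run. The other alternatives were thresholds, filters, median centring, no or trended variance moderation, only the compared groups and each array left out. Plots used matplotlib 3.10.9 (Python 3.11.15).

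The members and lists were chosen with earlier results of these data known. The naming rule took every member, the called genes of each list or else its 3 largest differences (printed here for TFPIα against empty vector and, in some lists, 1 or more other comparisons), ATP1B1 and TFPI, and the 10 genes correlating best with the mean standardised signal of the members. Keratins and ERBB2 in the check of the labels, and ITGB4's values in each array, were chosen after their values were seen. GMNN and CDC45 belong to a list and to the genes of like pattern. CDKN2C had no probe set of its own, and DBF4B, E2F8 and CDKN2A were under the filter.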

Additional observations from a re-analysis of the deposited data

How the results depend on the processing

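In each of the 6 comparisons 0 of 10 members were called in limma at an adjusted p under 0.05 under every alternative run, and at an adjusted p under 0.10 or with no limit on the fold change in the fit of all arrays. A limit of 0.10 on the adjusted p in 2 further fits was added after the data had been seen. There 8 of 10 were called in TFPIα against empty vector with the replicate block and without TFPIβ replicate 3. In replicate 3 against replicate 2 without TFPIα replicate 2 it was 2 of 10. The share of all probe sets called at this limit was not computed in these fits, so these counts cannot be set against it. Using all probe sets of a gene changed nothing since each member has 1. The fit with the replicate block changed no call of a member (0, 0 and 0 in the 3 group comparisons). Medians of the members in TFPIα against empty vector were 1.24 to 1.78 with each array left out. In TFPIβ against TFPIα the median was -1.75 without TFPIβ replicate 3, in the fit of all groups and in that of the compared groups alone, and -1.75 to -0.58 over the arrays left out in turn. Leaving out single arrays gave -0.95 to -0.13 for replicate 2 against replicate 1, 0.0015 to 0.89 for replicate 3 against replicate 1 and 0.58 to 1.47 for replicate 3 against replicate 2. In TFPIβ against empty vector the median was 0.34 and -0.21 to 0.90 over the arrays left out. Single members turned direction there without TFPIβ replicate 3, whether all or only the compared groups were fitted; the log2 fold changes over the arrays left out were -0.23 to 0.61 (ORC1), -0.88 to 0.91 (CDC6), -0.036 to 0.30 (CDT1), -0.17 to 0.69 (MCM2), -0.30 to 1.02 (MCM3), -0.33 to 0.89 (MCM5), -0.41 to 1.08 (MCM6), -0.19 to 0.86 (MCM7) and -0.13 to 1.21 (MCM10). With the replicate block as well they were -0.20 (ORC1), -0.79 (CDC6), -0.087 (CDT1), -0.089 (MCM2), -0.22 (MCM3), -0.25 (MCM5), -0.28 (MCM6) and -0.084 (MCM7), while MCM10 stayed above 0 at 0.034. CDC6 had -0.0039 with arrays centred on their medians. CDT1 in replicate 3 against replicate 2 was -0.087 to 0.27 over the arrays left out. The cause was not tested. Over all probe sets, 1 was called in TFPIα against empty vector and 0 to 4 under the alternatives, 20 in replicate 2 against replicate 1 and 0 to 40, and 0 in replicate 3 against replicate 2 and up to 88 (without TFPIα replicate 2). Fits that combined the block or the compared groups with the omission of TFPIβ replicate 3 were added after the data had been seen.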
